A study of Homo sapiens with 8 samples.

Results

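The 6 genes of the GDNF family signalling system followed here were the coreceptor genes GFRA1, GFRA2 and GFRA3, the receptor gene RET, and the ligand genes GDNF and NRTN. They were chosen by name among the 61209 gene names of the count table, GFRA1 because its RNA was higher with FGF8+10. The choice was made with earlier results of these data known. The p-values of the other genes therefore do not come from a choice blind to these data. All 6 of 6 were measured and passed the filter on low counts that left 22554 genes. GDNF family ligands are secreted dimers that bind a GFRA coreceptor held on the cell surface by a lipid anchor. The ligand and coreceptor together bring RET, a transmembrane tyrosine kinase, into an active complex that signals through the ERK and PI3K pathways. GFRA1 binds GDNF, GFRA2 binds neurturin (the product of NRTN), and GFRA3 binds artemin, although the pairing is not strict. The pathway is known for kidney branching, where mesenchymal GDNF acts on RET in the ureteric bud, and for the growth of enteric, motor and sympathetic neurons.

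The cells came from H1, an established line of human embryonic stem cells, and had the Msx1-P2A-tdTomato genotype, in which a red fluorescent protein is made with MSX1. All groups shared this line and were sampled at day 8 of differentiation through lateral plate mesoderm. The labels give the same earlier steps for every group, Mock included. Day 0 brought FGF2 (10 ng/mL), BMP4 (40 ng/mL), activin A (50 ng/mL) and the compound CHIR99021 (6 µM). Day 1 brought CHIR99021 (1 µM) with more BMP4 (60 ng/mL). Pellet culture, with 25000 cells per well, lasted 3 days. FGF2 was thus given to cells of both treatments. The FGF8+10 groups received FGF8 and FGF10 at 500 ng/mL each from day 4, and the Mock groups received a medium of unstated composition. Sorting split the Msx1-positive cells by Pdgfra into a positive and a low population, which gave 4 groups of 2 libraries: FGF8+10 Pdgfra-positive, FGF8+10 Pdgfra-low, Mock Pdgfra-positive and Mock Pdgfra-low. The labels call the 2 libraries of a group biological replicates and do not say whether each was differentiated on its own, so p-values measure the spread among these libraries alone, which may be technical. The number of reporter clones is not given in the sources used here.

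Depth ranged from 47698561 to 64390444 counts per library. PDGFRA, the gene of the sort, averaged 714 CPM (counts relative to the library total, with libraries scaled by TMM) in FGF8+10 Pdgfra-positive and 285 CPM in FGF8+10 Pdgfra-low libraries, and 454 and 192 CPM in the matching Mock libraries. MSX1 averaged 50.3 and 50.7 CPM in the Pdgfra-positive and Pdgfra-low groups of the FGF8+10 treatment, and 21.7 and 26.1 CPM in those of Mock. In bulk RNA, fewer cells of a type and less RNA per cell cannot be told apart. Across all tested genes, 25.8% were higher and 25.1% lower with FGF8+10 in Pdgfra-positive cells at an adjusted p of 0.05, or 50.9% in either direction, and 27.9% were higher and 27.7% lower in Pdgfra-low cells, or 55.7%. With libraries scaled by their totals alone, 8164 genes were higher and 3991 lower in Pdgfra-positive cells, against 5811 and 5658 with TMM, and 8113 were higher and 4672 lower in Pdgfra-low cells, against 6302 and 6256. All FGF8+10 libraries lay above all Mock libraries for 36.6% of genes and below them for 37% in Pdgfra-positive cells, and for 37.4% and 38.6% in Pdgfra-low cells. A change of a single gene is therefore common in these comparisons.

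The genes lie on GRCh38 (exons of GENCODE 42) at chr10:116056925-116276803 for GFRA1 and chr5:138252380-138274621 for GFRA3, both on the minus strand. RET lies at chr10:43077064-43130351 and NRTN at chr19:5805067-5828324 on the plus strand, and GDNF at chr5:37812677-37840041 on the minus strand. Counting was per gene over all exons, so isoforms and alternative starts were not separated. The counted exons of GDNF share 681 of their 4628 bases (14.7%) with GDNF-AS1 on the other strand, and those of GFRA1 share 421 of 10655 bases (3.95%) with an unnamed gene on the other strand. Counting used no strand and dropped reads over both genes of such an overlap.

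The 250 bases before the outermost RefSeq start of GFRA1, RET, GFRA3 and NRTN (GRCh38.p14) are shown because these genes differed between the treatments in both populations, 3 being higher and 1 lower with FGF8+10. They run 5′ to 3′ on the strand of the gene, and capitals mark CpG dinucleotides. The windows are chr10:116274706-116274955 on the minus strand, chr10:43076819-43077068 on the plus strand, chr5:138274622-138274871 on the minus strand and chr19:5804817-5805066 on the plus strand.
GFRA1: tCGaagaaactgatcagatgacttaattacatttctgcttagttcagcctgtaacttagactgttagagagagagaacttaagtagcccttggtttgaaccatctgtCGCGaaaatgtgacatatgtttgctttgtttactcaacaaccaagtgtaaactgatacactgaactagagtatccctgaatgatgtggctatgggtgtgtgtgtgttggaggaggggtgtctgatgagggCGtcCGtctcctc
RET: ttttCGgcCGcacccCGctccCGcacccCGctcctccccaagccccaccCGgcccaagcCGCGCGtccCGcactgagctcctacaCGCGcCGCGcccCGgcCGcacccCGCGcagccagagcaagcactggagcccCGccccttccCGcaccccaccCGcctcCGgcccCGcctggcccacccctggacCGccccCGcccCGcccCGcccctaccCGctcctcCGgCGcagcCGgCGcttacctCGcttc
GFRA3: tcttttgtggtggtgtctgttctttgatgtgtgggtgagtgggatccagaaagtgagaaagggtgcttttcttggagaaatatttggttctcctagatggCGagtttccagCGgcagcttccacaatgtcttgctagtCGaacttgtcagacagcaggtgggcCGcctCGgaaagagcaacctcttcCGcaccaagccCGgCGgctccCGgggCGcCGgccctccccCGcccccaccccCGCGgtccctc
NRTN: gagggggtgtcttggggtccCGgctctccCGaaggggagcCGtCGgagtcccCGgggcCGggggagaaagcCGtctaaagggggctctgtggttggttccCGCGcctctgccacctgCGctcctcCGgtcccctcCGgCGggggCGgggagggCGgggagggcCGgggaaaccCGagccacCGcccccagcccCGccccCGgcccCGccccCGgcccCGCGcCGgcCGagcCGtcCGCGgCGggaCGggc
The GFRA1 window held 5 CpG dinucleotides at 43.2% G and C, and the RET window held 33 at 79.6%. GFRA3 had 14 at 59.2%, and NRTN had 31 at 80.4%. Over the 35116 windows of the RefSeq promoter table the median was 11 CpG, and 38.1% of windows held as few as the GFRA1 window or fewer, against 93.2% for that of RET. The outermost RefSeq start of GFRA1 lies 2098 bases inside the outermost counted exon. GFRA1 has 4 RefSeq windows, with 5, 23, 17 and 4 CpG dinucleotides, and the gene counts do not say which start was used. The letters AGGAAG and CCGGAA (core motifs of ETS factors, the first close to the PEA3 group of ETV1, ETV4 and ETV5) and TGANTCA (the AP-1 motif) were searched on both strands. The first pair share the letters GGAA. None of the 4 printed windows held any of them, and of the 12 RefSeq windows of GFRA1, RET, GFRA3, GDNF and NRTN, 2 held AGGAAG, 1 in the last GFRA1 window and 1 in GDNF. Of all windows, 28.7% held AGGAAG, 14.5% CCGGAA and 6.57% TGANTCA.

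GFRA1 RNA was high in both FGF8+10 populations and low under Mock, most of all in Mock Pdgfra-low cells. GFRA1 had 61.5 and 59.1 CPM in FGF8+10 Pdgfra-positive libraries and 36.5 and 35.6 CPM in FGF8+10 Pdgfra-low libraries, against 3.90 and 2.88 CPM in Mock Pdgfra-positive and 0.296 and 0.132 CPM in Mock Pdgfra-low libraries. The 4 groups did not overlap, and their order was the same in every library. The fold change between FGF8+10 and Mock was 17.9 in Pdgfra-positive cells and 167 in Pdgfra-low cells (log2 4.16 and 7.38), values given as a description with no test because this rise is what GFRA1 was chosen for. The Mock Pdgfra-low level rests on 18 and 8 counts, 26 in all. Taking 2 mate counts as 1 pair, the ratio of mean CPM in Pdgfra-low cells was 168, with an exact binomial 95% interval of 98.3 to 317 that covers counting error only. Without Mock Pdgfra-low replicate 1 the log2 fold change in that population was 8.07, and without replicate 2 it was 6.92.

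Between the sorted populations, both Pdgfra-positive libraries had more GFRA1 RNA than both Pdgfra-low libraries under each treatment. The fold change was 1.67 under FGF8+10 (log2 0.74 ± 0.07 SE) and 15.6 under Mock (log2 3.96 ± 0.23 SE), again with no test, since the same libraries chose GFRA1. Under Mock the log2 value was 4.65 without Pdgfra-low replicate 1 and 3.50 without replicate 2. The FGF8+10 effect on GFRA1 was smaller in Pdgfra-positive than in Pdgfra-low cells by 3.22 on the log2 scale, by 3.90 without Mock Pdgfra-low replicate 1 and by 2.76 without replicate 2, which is not tested for the same reason.

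GFRA3, the artemin coreceptor, was the most abundant of the 6 genes in every group and was highest in FGF8+10 Pdgfra-positive cells. GFRA3 had 262 and 264 CPM in FGF8+10 Pdgfra-positive libraries and 107 and 100.5 CPM in FGF8+10 Pdgfra-low libraries, against 110.0 and 109.6 CPM in Mock Pdgfra-positive and 77.4 and 78.7 CPM in Mock Pdgfra-low libraries. FGF8+10 Pdgfra-low and Mock Pdgfra-positive libraries lay side by side at 100.5 to 110.0 CPM. GFRA3 rose with FGF8+10 in Pdgfra-positive cells by 2.39-fold (log2 1.26 ± 0.032 SE, edgeR adjusted p = 2.51e-33) and in Pdgfra-low cells by 1.33-fold (log2 0.41 ± 0.033 SE, edgeR adjusted p = 1.17e-14). The effect was larger in Pdgfra-positive cells, with a difference of 0.85 ± 0.046 SE on the log2 scale (edgeR adjusted p = 1.16e-19). GFRA3 was also higher in Pdgfra-positive than in Pdgfra-low cells, by 2.54-fold under FGF8+10 (edgeR adjusted p = 1.04e-33) and 1.41-fold under Mock (edgeR adjusted p = 2.41e-16).

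GFRA2, the neurturin coreceptor (chr8:21690398-21812357, minus strand), was scarce in every group, and its lowest level was in Mock Pdgfra-positive cells. GFRA2 had 0.770 and 1.63 CPM in FGF8+10 Pdgfra-positive libraries and 0.641 and 0.648 CPM in FGF8+10 Pdgfra-low libraries, against 0.224 and 0.249 CPM in Mock Pdgfra-positive and 0.870 and 0.926 CPM in Mock Pdgfra-low libraries. The FGF8+10 Pdgfra-positive libraries, at 52 and 111 counts, differed by more than those of any other group, and the Mock Pdgfra-positive libraries held 10 and 12 counts. GFRA2 rose with FGF8+10 in Pdgfra-positive cells (log2 2.33 ± 0.45 SE, edgeR adjusted p = 1.78e-05), and the log2 value was 1.71 without FGF8+10 Pdgfra-positive replicate 2 and 2.79 without replicate 1. In Pdgfra-low cells the log2 difference was -0.48 ± 0.39 SE (edgeR adjusted p = 0.317), with a 95% interval of -1.27 to 0.31. The 2 effects differed by 2.81 ± 0.60 SE on the log2 scale (edgeR adjusted p = 0.00023), and by 2.18 without FGF8+10 Pdgfra-positive replicate 2. Under Mock, GFRA2 was lower in Pdgfra-positive than in Pdgfra-low cells (log2 -1.91 ± 0.46 SE, edgeR adjusted p = 0.00101). Under FGF8+10 the difference was 0.90 ± 0.38 SE (edgeR adjusted p = 0.0571). It was called without FGF8+10 Pdgfra-positive replicate 1 (1.34, edgeR adjusted p = 0.0122), without either Mock Pdgfra-positive library (edgeR adjusted p = 0.0478 and 0.0488) and with counts halved to pairs (edgeR adjusted p = 0.0318). Without FGF8+10 Pdgfra-positive replicate 2 it was 0.26 (edgeR adjusted p = 0.767).

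RET RNA was higher with FGF8+10 in both populations and reached nearly the same level in them. RET had 4.93 and 5.08 CPM in FGF8+10 Pdgfra-positive libraries and 5.24 and 5.25 CPM in FGF8+10 Pdgfra-low libraries, against 0.672 and 1.10 CPM in Mock Pdgfra-positive and 0.722 and 0.661 CPM in Mock Pdgfra-low libraries. The FGF8+10 libraries held 278 to 345 counts and the Mock libraries 30 to 53, and the treatments did not overlap. RET rose 5.60-fold in Pdgfra-positive cells (log2 2.49 ± 0.23 SE, edgeR adjusted p = 4.37e-13) and 7.56-fold in Pdgfra-low cells (log2 2.92 ± 0.23 SE, edgeR adjusted p = 2.22e-15). The effects differed by -0.43 ± 0.33 SE (edgeR adjusted p = 0.401), with a 95% interval of -1.10 to 0.24. Pdgfra-positive against Pdgfra-low cells gave log2 -0.07 ± 0.18 SE under FGF8+10 (edgeR adjusted p = 0.818) and 0.36 ± 0.28 SE under Mock (edgeR adjusted p = 0.392), neither called. Under FGF8+10 both Pdgfra-positive libraries lay slightly below both Pdgfra-low libraries, which held for 33.4% of all tested genes. Under Mock the populations overlapped.

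NRTN, the neurturin gene, was lower with FGF8+10 in both populations, whereas RET and GFRA3 were higher. NRTN had 3.23 and 3.43 CPM in FGF8+10 Pdgfra-positive libraries and 0.999 and 0.989 CPM in FGF8+10 Pdgfra-low libraries, against 12.4 and 10.2 CPM in Mock Pdgfra-positive and 11.9 and 12.2 CPM in Mock Pdgfra-low libraries. Both FGF8+10 groups lay below every Mock library, and the 2 Mock groups overlapped. NRTN fell by 1.76 on the log2 scale in Pdgfra-positive cells (± 0.14 SE, edgeR adjusted p = 3.73e-15) and by 3.60 in Pdgfra-low cells (± 0.17 SE, edgeR adjusted p = 1.60e-23). The effect in Pdgfra-positive minus that in Pdgfra-low cells was 1.84 ± 0.22 SE (edgeR adjusted p = 4.94e-09). NRTN was 3.34-fold higher in Pdgfra-positive than in Pdgfra-low cells under FGF8+10 (log2 1.74 ± 0.18 SE, edgeR adjusted p = 3.48e-11), and under Mock the log2 difference was -0.10 ± 0.13 SE (edgeR adjusted p = 0.653).

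GDNF itself varied over a narrow range, and its highest level was in Mock Pdgfra-low cells. GDNF had 1.10 and 1.06 CPM in FGF8+10 Pdgfra-positive libraries and 1.21 and 1.55 CPM in FGF8+10 Pdgfra-low libraries, against 1.34 and 1.22 CPM in Mock Pdgfra-positive and 2.33 and 2.30 CPM in Mock Pdgfra-low libraries. The 2 Mock Pdgfra-low libraries lay well above the rest, and the 2 FGF8+10 Pdgfra-positive libraries lay slightly below all others. GDNF was lower with FGF8+10 in Pdgfra-low cells (log2 -0.74 ± 0.26 SE, edgeR adjusted p = 0.0148), and in Pdgfra-positive cells the log2 difference was -0.25 ± 0.28 SE (edgeR adjusted p = 0.492). The effects differed by 0.49 ± 0.39 SE (edgeR adjusted p = 0.412). Under Mock, GDNF was lower in Pdgfra-positive than in Pdgfra-low cells (log2 -0.85 ± 0.27 SE, edgeR adjusted p = 0.0149), and under FGF8+10 the difference was -0.36 ± 0.28 SE (edgeR adjusted p = 0.329). Both GDNF calls were lost when single libraries were left out. The first had adjusted p-values of 0.138, 0.0628 and 0.0545 without FGF8+10 Pdgfra-low replicate 1, Mock Pdgfra-low replicate 1 and Mock Pdgfra-low replicate 2 in that order, and of 0.0565 with libraries scaled by their totals alone (log2 -0.58). The second had 0.0521 to 0.105 without any 1 of the 4 Mock libraries. GDNF-AS1, whose exons overlap those of GDNF, had log2 differences with FGF8+10 of -0.74 in Pdgfra-positive cells (edgeR adjusted p = 0.0369) and 0.02 in Pdgfra-low cells (edgeR adjusted p = 0.964). These GDNF-AS1 effects differed by -0.75 ± 0.42 SE (edgeR adjusted p = 0.206). A difference between the populations was thus called for neither GDNF-AS1 nor GDNF. The part of GDNF-AS1 in the GDNF values was not tested.

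**Figure D1:**
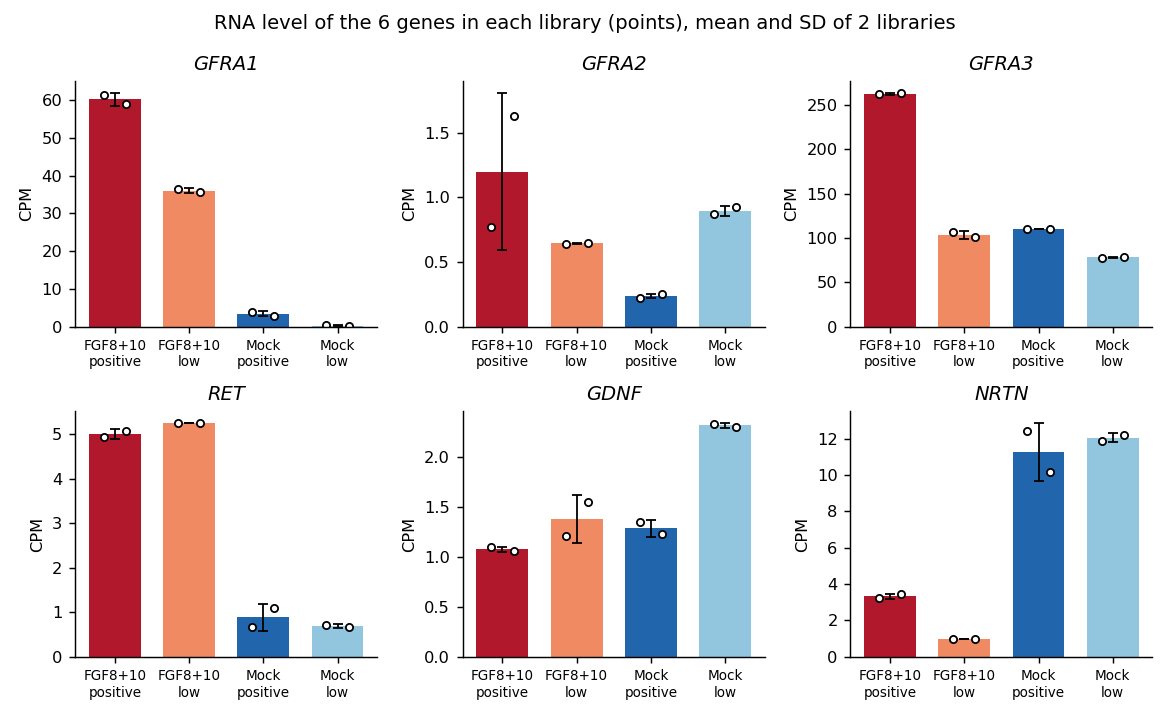
Each panel plots 1 gene, with CPM on the y axis and the 4 groups on the x axis. Bars are means, error bars the SD and open points the 2 libraries. GFRA1 and RET stand high in both FGF8+10 groups (GFRA1 at 35.6 to 61.5 CPM, RET at 4.93 to 5.25 CPM), NRTN stands high in both Mock groups at 10.2 to 12.4 CPM, and GDNF is highest in Mock Pdgfra-low cells.

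Counting the genes other than GFRA1, 3 of 5 (GFRA2, GFRA3 and RET) were higher and NRTN was lower with FGF8+10 in Pdgfra-positive cells. There, 25.8% of all tested genes were higher and 25.1% lower (50.9% in either direction). In Pdgfra-low cells 2 of 5 (GFRA3 and RET) were higher and 2 of 5 (GDNF and NRTN) lower. The shares of all tested genes in Pdgfra-low cells were 27.9% higher and 27.7% lower (55.7% in either direction). For Pdgfra-positive against Pdgfra-low cells, GFRA3 and NRTN of the same 5 genes were higher under FGF8+10, where 19.6% of all tested genes were higher and 21.7% lower (41.4% in either direction). Under Mock, GFRA3 was higher and GFRA2 and GDNF were lower, where 12.4% of all tested genes were higher and 13.4% lower (25.8% in either direction). The libraries of Pdgfra-positive cells lay above those of Pdgfra-low cells for 33.8% of genes and below them for 33.4% under FGF8+10, and for 30.5% and 28.1% under Mock. For the difference between the FGF8+10 effects, GFRA2, GFRA3 and NRTN of the 5 genes were higher, beside 12% of all tested genes. With 5 genes, these counts describe the genes and were not tested against the background.

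**Figure D2:**
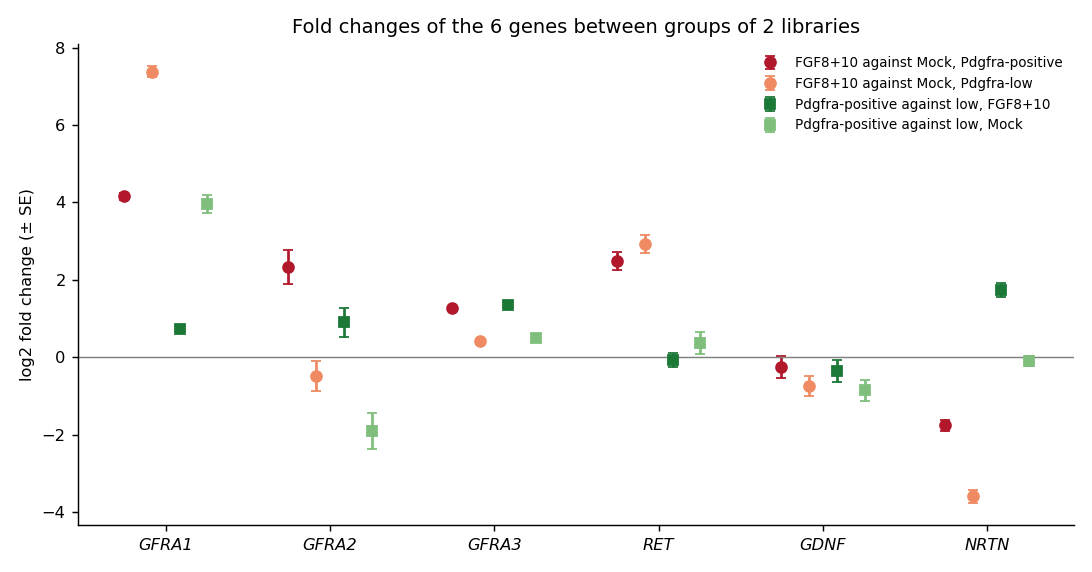
Log2 fold changes of the 6 genes are plotted on the y axis for FGF8+10 against Mock (circles) and for Pdgfra-positive against Pdgfra-low cells (squares), with error bars of 1 SE. RET lies at 2.49 and 2.92 in the FGF8+10 comparisons and near 0 between populations, whereas GFRA3 lies above 0 in all 4 and GFRA2 changes sign between them. The FGF8+10 points of GFRA1 (4.16 and 7.38) are a description.

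Levels of different genes were compared per length, as CPM per kilobase of counted exon, a scale that understates genes with many rarely used exons. In FGF8+10 Pdgfra-positive cells the order was GFRA3 at 132, GFRA1 at 5.66, NRTN at 2.18, RET at 0.558, GDNF at 0.233 and GFRA2 at 0.208. In FGF8+10 Pdgfra-low cells the order was the same, with GFRA3 at 52.1, GFRA1 at 3.38, NRTN at 0.651, RET at 0.585, GDNF at 0.298 and GFRA2 at 0.112. In Mock Pdgfra-positive cells GFRA3 at 55.2 and NRTN at 7.39 led, followed by GFRA1 at 0.318, GDNF at 0.277, RET at 0.0987 and GFRA2 at 0.0409. In Mock Pdgfra-low cells GFRA3 at 39.3 and NRTN at 7.89 led again, followed by GDNF at 0.500, GFRA2 at 0.156, RET at 0.0771 and GFRA1 at 0.0201. GFRA1 thus stood at rank 2 of 6 in both FGF8+10 groups, at rank 3 in Mock Pdgfra-positive and at rank 6 in Mock Pdgfra-low cells. The ratio of GFRA1 to RET per length was 10.2 and 5.79 in the FGF8+10 Pdgfra-positive and Pdgfra-low groups, against 3.22 and 0.260 in those of Mock. The ratio of GFRA3 to RET was 237 and 89.2 in the FGF8+10 groups, against 560 and 509 in the Mock groups, in the same order of populations. GDNF and GFRA2 did not differ beyond the spread of their libraries in FGF8+10 Pdgfra-positive cells, where GFRA2 had 0.133 and 0.283 and GDNF 0.237 and 0.229 per kilobase. The same held for GFRA1 and GDNF in Mock Pdgfra-positive cells, with GFRA1 at 0.366 and 0.271 and GDNF at 0.290 and 0.264. In FGF8+10 Pdgfra-low cells NRTN had 0.654 and 0.647 per kilobase and RET 0.584 and 0.585. NRTN rests there on 53 and 58 counts, so the order of these genes is unsure.

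**Figure D3:**
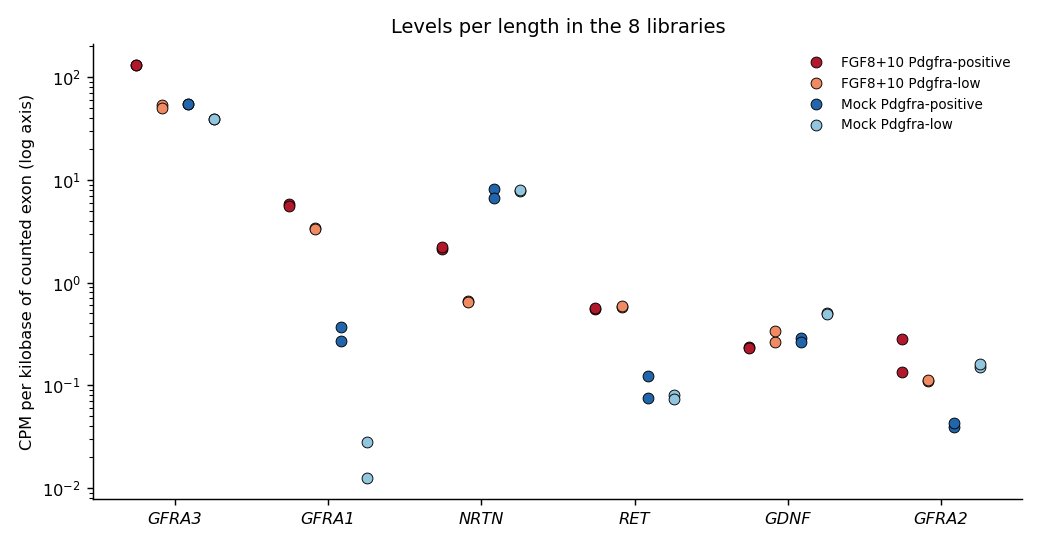
Each point is 1 library, with CPM per kilobase of counted exon on a log y axis and the 6 genes on the x axis. GFRA3 lies at 38.9 to 133 in all 8 libraries, while the GFRA1 libraries spread from 0.0124 to 5.77.

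Other ligands and receptors of the family were taken from lists. Of the 5 ligand genes, artemin (ARTN) stayed under 0.6 CPM in every library, and PSPN, the gene of persephin, had 3.24 to 4.62 CPM in FGF8+10 libraries and 4.05 to 6.08 CPM in Mock libraries. GDF15, a stress-induced hormone that signals through GFRAL and RET, rose with FGF8+10 in Pdgfra-low cells to 9.09 CPM, against 3.21 CPM under Mock (2.83-fold, edgeR adjusted p = 3.25e-09), and had 0.310 CPM in FGF8+10 Pdgfra-positive and 0.530 CPM in Mock Pdgfra-positive cells. In Pdgfra-low cells 1 of the 5 ligand genes was higher and 3 lower, and in Pdgfra-positive cells 1 (NRTN) was lower. The shares of all tested genes higher and lower were 27.9% and 27.7% in Pdgfra-low and 25.8% and 25.1% in Pdgfra-positive cells. Of the receptors, GFRA4, the persephin coreceptor, had 0 to 4 counts per library and GFRAL 0 to 2, below the floor of 6 counts (3 read pairs) that a count of 0 allows. GAS1, a distant relative of the GFRA proteins best known as a hedgehog coreceptor, had 21.1 CPM in FGF8+10 against 18.4 CPM in Mock Pdgfra-positive cells (log2 0.20 ± 0.074 SE, edgeR adjusted p = 0.0215). In Pdgfra-low cells it was lower, with 14.1 CPM under FGF8+10 against 55.1 CPM under Mock (log2 -1.96 ± 0.072 SE, edgeR adjusted p = 2.51e-27). NCAM1, through which GDNF and GFRA1 can act without RET, was lower in both populations, by log2 -0.77 in Pdgfra-positive and -0.64 in Pdgfra-low cells (edgeR adjusted p = 1.76e-25 and 4.00e-22).

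Of 20 adaptor and relay genes 18 were tested, and in Pdgfra-positive cells 9 were higher and 4 lower, with a median log2 fold change of 0.21 against -0.01 over all tested genes. In Pdgfra-low cells 9 were higher and 3 lower, with a median of 0.12 against -0.02. Of all tested genes 25.8% were higher and 25.1% lower in Pdgfra-positive cells (50.9% in either direction). In Pdgfra-low cells these shares were 27.9% and 27.7% (55.7%). The counts were not tested against these shares, so nothing is read from them about the list. DOK4, an adaptor that binds phosphorylated RET, had 404 CPM in FGF8+10 against 148 CPM in Mock Pdgfra-positive cells, and 845 against 187 CPM in Pdgfra-low cells (log2 1.45 and 2.18, edgeR adjusted p = 1.60e-39 and 5.14e-47). Its relatives differed: DOK5 rose in Pdgfra-positive cells by 1.43 on the log2 scale (edgeR adjusted p = 1.39e-21), and DOK6 rose there by 1.07 (edgeR adjusted p = 1.77e-10) and was lower in Pdgfra-low cells at -0.56 (edgeR adjusted p = 0.000163).

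Genes that RET raises in the mouse ureteric bud were mostly higher with FGF8+10. Of 12 tested, 10 were higher in Pdgfra-positive cells (median log2 2.05) and 10 higher and 1 lower in Pdgfra-low cells (median log2 2.00). Of all tested genes 25.8% were higher and 25.1% lower in Pdgfra-positive cells, and 27.9% and 27.7% in Pdgfra-low cells. CXCR4, a chemokine receptor, had 91.8 CPM in FGF8+10 against 3.78 CPM in Mock Pdgfra-positive cells, and 57.0 against 1.59 CPM in Pdgfra-low cells. SPRY1, a feedback inhibitor of receptor tyrosine kinase signalling, had 201 against 16.9 CPM and 172 against 3.50 CPM in the same comparisons. ETV4, an ETS transcription factor, had 18.4 against 1.98 CPM and 46.5 against 0.272 CPM. Their edgeR adjusted p-values were between 1.94e-50 and 2.11e-27. FGF receptors raise many of the same genes, so in cells given FGF8 and FGF10 the share of RET cannot be told apart.

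A further pair of lists bears on how GDNF is made and handled. Of 22 genes that regulate GDNF in the kidney, 19 were tested, with 9 higher and 6 lower in each population, where 25.8% and 25.1% of all tested genes were higher and lower in Pdgfra-positive cells and 27.9% and 27.7% in Pdgfra-low cells. Median log2 fold changes were 0.73 (Pdgfra-positive) and 0.60 (Pdgfra-low). GREM1, a BMP antagonist, had 5.89 CPM in FGF8+10 against 0.142 CPM in Mock Pdgfra-positive cells and 10.2 CPM against 2 counts in the 2 Mock Pdgfra-low libraries, while NPNT, the nephronectin gene, had 0.524 against 12.1 CPM and 5.25 against 133 CPM. Of 6 genes of GDNF processing and sorting, 3 were higher and 2 lower in Pdgfra-positive cells, and 3 were higher and 3 lower in Pdgfra-low cells, beside the same shares of all genes. SORL1, a sorting receptor that carries GDNF and GFRA1 into the cell, had 119 CPM in FGF8+10 against 15.2 CPM in Mock Pdgfra-positive cells, and 124 against 11.5 CPM in Pdgfra-low cells (log2 2.97 and 3.43, edgeR adjusted p = 2.66e-39 and 8.16e-42). PCSK5, a proprotein convertase, fell by 1.51 and 1.67 on the log2 scale (edgeR adjusted p = 9.12e-23 and 4.62e-25).

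**Figure D4:**
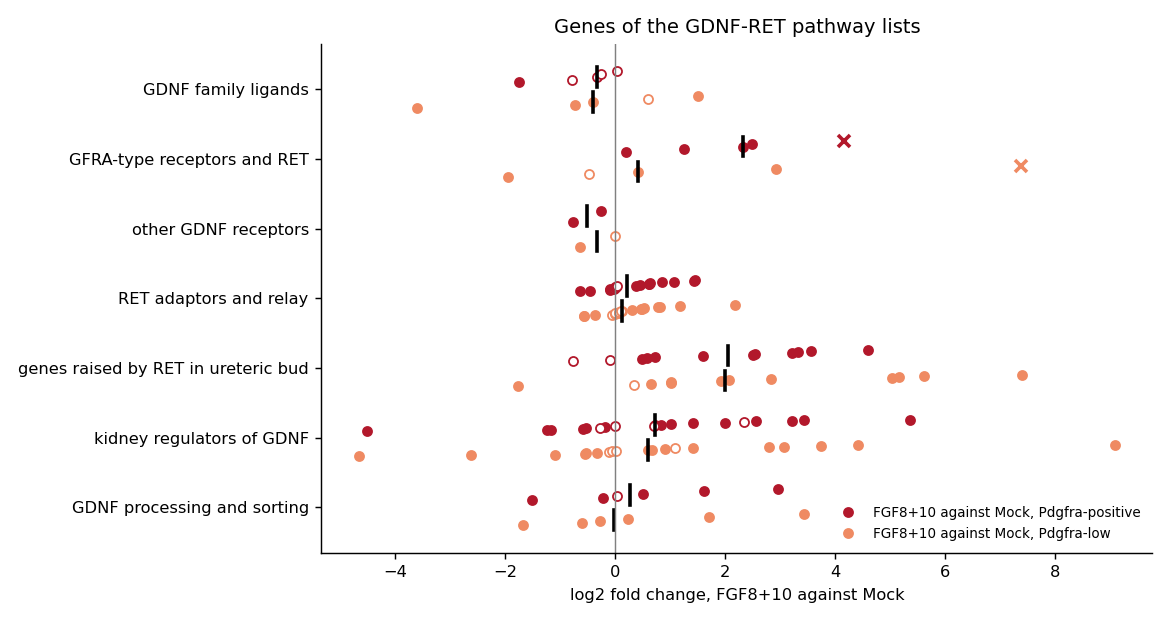
Log2 fold changes of FGF8+10 against Mock are on the x axis, with 1 row per list and the 2 populations in 2 colours. Filled points passed an adjusted p of 0.05, open points did not, crosses are GFRA1 (no test), and black bars are medians. The bars of the genes raised by RET in ureteric bud stand at 2.05 and 2.00, and those of the adaptors at 0.21 and 0.12.

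Markers of cells that the gates could hold, among them cells known to use this pathway, differed between the groups. With FGF8+10, 25.8% of all tested genes were higher and 25.1% lower in Pdgfra-positive cells, and 27.9% and 27.7% in Pdgfra-low cells. For Pdgfra-positive against Pdgfra-low cells under FGF8+10, 19.6% were higher and 21.7% lower. Marker counts near these shares are not read as results about the markers. SOX10, a neural crest factor, had 0 to 12 counts in the 8 libraries. The 11 neural crest and enteric neuron markers, of which 4 were tested, summed to 5.60 to 6.49 CPM in FGF8+10 Pdgfra-positive, 13.3 to 14.9 CPM in FGF8+10 Pdgfra-low, 13.3 to 15.3 CPM in Mock Pdgfra-positive and 135 to 136 CPM in Mock Pdgfra-low libraries. With FGF8+10, 2 of the 4 were lower in Pdgfra-positive cells, and 2 were higher and 2 lower in Pdgfra-low cells. Most of the Mock Pdgfra-low sum was STMN2, a neuronal gene, at 129 CPM in both libraries. The 8 motor and cholinergic neuron markers summed to 12.9 to 14.3, 13.5 to 13.8, 18.9 to 20.2 and 127 to 133 CPM in the same order of groups, with 2 higher and 3 lower of 5 tested in each population, and CHAT had 0 counts in all 4 FGF8+10 libraries. SLC18A3, the vesicular acetylcholine transporter gene, made up most of the Mock Pdgfra-low sum of this list at 90.3 CPM. The neurofilament gene NEFM went the other way, with 10.1 CPM in FGF8+10 against 2.55 CPM in Mock Pdgfra-positive cells, as did NEFL at 3.25 against 1.62 CPM. The summed levels of both neuronal lists, carried by STMN2 and SLC18A3, were highest in Mock Pdgfra-low cells, where GDNF was also highest and GFRA1 lowest, and their part in those values was not tested. The 9 kidney lineage markers summed to 25.2 to 50.1 CPM over all libraries, most of it GATA3, with means of 46.7 and 25.0 CPM in FGF8+10 Pdgfra-positive and Pdgfra-low cells against 48.4 and 36.5 CPM in those of Mock. PAX2 and SIX2 were at 0 to 8 counts. Of the 4 kidney markers tested, 1 (LHX1) was higher with FGF8+10 and 1 lower in Pdgfra-positive cells, and 2 (LHX1 and WT1) were higher and 2 lower in Pdgfra-low cells. LHX1 had 65 and 81 counts in FGF8+10 Pdgfra-positive and 59 and 38 in FGF8+10 Pdgfra-low libraries, against 0 and 13 in Mock Pdgfra-positive and 0 in both Mock Pdgfra-low libraries. The 8 endothelial markers summed to 2123 to 2133 CPM in FGF8+10 Pdgfra-positive and 2552 to 2557 CPM in FGF8+10 Pdgfra-low libraries, against 1327 to 1340 CPM in Mock Pdgfra-positive and 1361 to 1369 CPM in Mock Pdgfra-low libraries. KDR and TEK, which other cells also express, made up nearly the whole sum. In Pdgfra-low cells all 8 were higher with FGF8+10, and in Pdgfra-positive cells 5 were higher and 2 lower. Among the lower, CLDN5 had 4 and 4 counts under FGF8+10 against 1 and 23 under Mock, and its log2 value turned to 1.32 without Mock Pdgfra-positive replicate 2. Under FGF8+10, 7 of the 8 were lower in Pdgfra-positive than in Pdgfra-low cells, with a median log2 fold change of -2.62. CDH5 had 1.39 CPM in Pdgfra-positive against 19.8 CPM in Pdgfra-low cells there, and PECAM1 had 2.60 against 18.5 CPM. These differences stand beside those of RET, GFRA1 and GFRA3, and their part in them was not tested.

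The genes whose pattern over the 8 libraries lay nearest to that of GFRA1, by Euclidean distance between centred log2 CPM among 18641 tested genes with a symbol, were CDH13 (distance 0.653), ANGPT1 (1.24), COLEC10 (1.34), ETV1 (1.42), ALDH1A2 (1.59), KLHL14 (1.75), ELOVL3 (1.99) and TNFRSF1B (2.24). CDH13, the gene of a lipid-anchored cadherin, had 482 and 240 CPM in the FGF8+10 Pdgfra-positive and Pdgfra-low groups, against 24.1 and 1.38 CPM in those of Mock. ANGPT1, a ligand of the TEK receptor, had 309 and 260 CPM against 19.1 and 0.923 CPM in the same order. ETV1, an ETS factor, had 76.7 and 88.6 CPM against 4.91 and 0.247 CPM, and ALDH1A2, which makes retinoic acid, 79.0 and 45.5 CPM against 7.73 and 0.437 CPM. By Pearson correlation in place of distance, 2 of these 8 genes, CDH13 and ELOVL3, stayed among the 8 nearest. The likeness follows the 4 group means and is a description over libraries that share those groups.

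**Figure D5:**
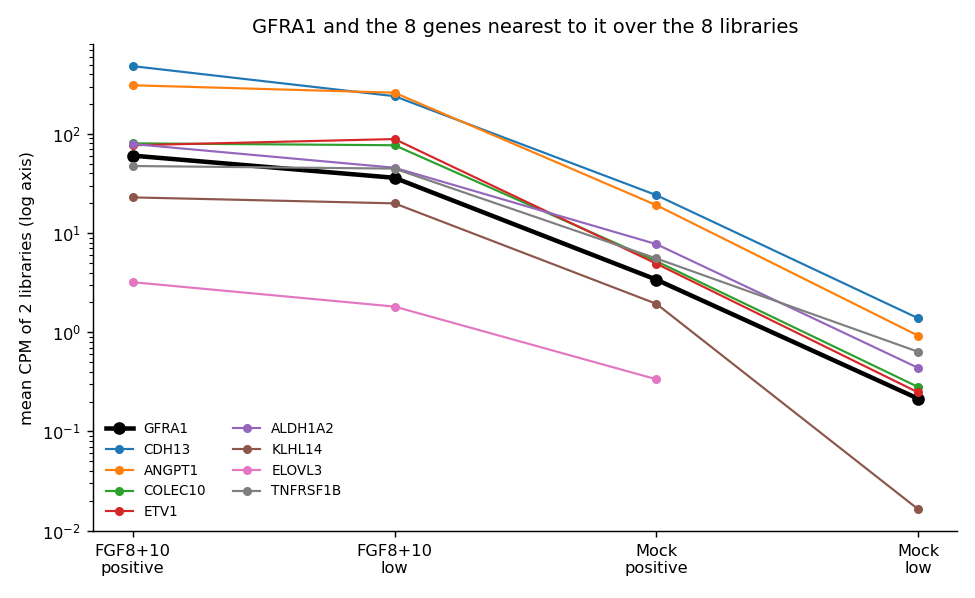
Mean CPM of 2 libraries is on a log y axis for GFRA1 (black) and its 8 nearest genes over the 4 groups. All lines lie higher in the FGF8+10 groups than in the Mock groups, with GFRA1 at 60.3 and 36.1 CPM against 3.39 and 0.214 CPM. ELOVL3 was at 0 in Mock Pdgfra-low cells and has no point there.

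For the other genes the 3 nearest were ENC1, FHL2 and LRRC8C for RET, MAGEL2, DNAH9 and EBF1 for GFRA3, and RGMA, PAIP1P1 and TENM2 for GFRA2. They were LRRN3, DIPK2A and TNNI1 for NRTN and ARHGAP10, AKR1B1 and PEX5L for GDNF. Distances were 0.444 to 0.542 for RET, 0.267 to 0.342 for GFRA3, 0.779 to 0.952 for GFRA2, 0.453 to 0.487 for NRTN and 0.263 to 0.300 for GDNF.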

How the data were processed

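Raw, unnormalised counts by gene name for 8 RNA-seq libraries were deposited as 1 table. Per the submitters' processing notes, reads were aligned with HISAT2 2.1.0 to GRCh38 after FastQC 0.11.8. Per the file headers, featureCounts 2.0.3 counted exons of GENCODE 42 without strand, counting both mates of a pair, so counts overstate fragments. Trimming is not given in the sources used here.

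In R 4.3.3 with edgeR 4.0.16, 22554 genes passed filterByExpr. TMM factors were 0.936 to 1.07, and 1 robust quasi-likelihood model was fitted over 8 libraries with a mean per group (4 residual degrees of freedom). A set of 5 two-sided contrasts were tested, with Benjamini-Hochberg adjustment over all genes of each at 0.05. The SE is the log2 fold change divided by the square root of F. The common biological coefficient of variation was 4.06%. Scripts were tested on simulated data with the common variation for every gene, a check of the code and not of error rates in these data. The genes, lists and tests were chosen with earlier results of these data known. Fold changes of list genes are given for at most 5 per comparison, those with the largest called log2 fold change. Levels of scarce family genes (ARTN, GFRA4, GFRAL), of PSPN, the DOK6 value in Pdgfra-low cells and markers singled out were added after their values were seen. Alternatives were DESeq2 1.42.0, DESeq2 size factors, library totals, no filter, halved counts, no robust step, a replicate block and leaving out each library. Promoter sequences are from RefSeq (GRCh38.p14), matched by symbol for 5 of the 6 genes.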

Additional observations from a re-analysis of the deposited data

Results flagged for a closer look

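The effect of FGF8+10 differed between Pdgfra-positive and Pdgfra-low cells, by an interaction contrast in edgeR, for 3 of the 5 family genes tested. The effect in Pdgfra-positive minus that in Pdgfra-low cells was 1.84 on the log2 scale for NRTN, 2.81 for GFRA2 and 0.85 for GFRA3. A further 18 genes were taken from the pathway lists for large called FGF8+10 effects in either population, a choice that favours differing effects. Of these 18, the same difference was positive for GAS1 at 2.16, DOK5 at 1.36 and DOK6 at 1.62. It was negative for GDF15 at -2.29, NCAM1 at -0.13, SDC3 at -0.25, DOK4 at -0.73, IRS1 at -0.71, SRC at -0.19, CXCR4 at -0.57, SPRY1 at -2.05, ETV4 at -4.20, GREM1 at -3.72 and SORL1 at -0.46. The GREM1 value rests on 2 counts in the Mock Pdgfra-low libraries and depends on the prior count. Across all tested genes, 26% had such a difference in either direction, a share that is no like measure for the 18 genes so chosen.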

How the results depend on the processing

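For the 5 family genes other than GFRA1, 361 of 375 values under an alternative kept direction and call, 8 lost the call, 4 gained it and 2 reversed. For GDNF with FGF8+10 in Pdgfra-low cells, library totals gave -0.58 (adjusted p = 0.0565), and leaving out 1 library gave -0.94 to -0.58. For GDNF in Pdgfra-positive against Pdgfra-low cells under Mock, leaving out 1 library gave -0.92 to -0.79. For GFRA2 in the same comparison under FGF8+10, halved counts gave 0.90 (adjusted p = 0.0318), and leaving out 1 library gave 0.26 to 1.34. Under Mock between populations, leaving out 1 library gave -0.25 to 0.04 for NRTN and -0.05 to 0.66 for RET, both signs turning without Mock Pdgfra-positive replicate 2. Marker values turned without it too: leaving out 1 library gave -2.97 to 1.32 for CLDN5 (FGF8+10 in Pdgfra-positive cells), and for LHX1 0.0 to 7.02 between the Mock populations and -6.72 to 0.30 in the difference of effects. The causes were not tested, and leaving out a library also left fewer libraries to the fit. The labels do not say whether replicate numbers pair the samples. Correlations of deviations between groups were -0.00947 to 0.0364, too low to show a pairing, but they cannot exclude it. The replicate block left the log2 fold change of RET at 2.49 and 2.92 and changed no call of the 6 genes. Under library totals the median gene moved to 0.161 with FGF8+10 in Pdgfra-positive and 0.146 in Pdgfra-low cells. Mean CPM by library totals were, for FGF8+10 Pdgfra-positive cells, 1.14 for GDNF, 3.52 for NRTN, 63.7 for GFRA1, 277.5 for GFRA3 and 5.28 for RET. For FGF8+10 Pdgfra-low cells they were 1.06 for NRTN, 38.3 for GFRA1, 0.685 for GFRA2, 110.2 for GFRA3 and 5.58 for RET. For Mock cells they were 102.9 for GFRA3 in Pdgfra-positive, and 2.20 for GDNF, 11.5 for NRTN, 0.854 for GFRA2 and 74.2 for GFRA3 in Pdgfra-low. Depth limits GFRA2 in Mock Pdgfra-positive and GFRA1 in Mock Pdgfra-low cells, at 8 to 18 counts a library.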

Other observations

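Another 3 marker lists were measured. With FGF8+10, 25.8% of all tested genes were higher and 25.1% lower in Pdgfra-positive cells, and 27.9% and 27.7% in Pdgfra-low cells. Of 6 cardiac muscle markers 5 were tested, with 1 (ACTC1) higher and 3 lower with FGF8+10 in each population. Of 5 blood markers 3 were tested, with TAL1 higher and 1 lower in Pdgfra-low cells. Of 11 limb and lateral plate mesenchyme markers, 5 were higher and 4 lower with FGF8+10 in Pdgfra-positive cells, and 2 (MSX1 and PDGFRA) were higher and 8 lower in Pdgfra-low cells. Their summed level was 2042 to 2054 CPM in FGF8+10 Pdgfra-positive and 1396 to 1418 CPM in FGF8+10 Pdgfra-low libraries, against 1767 to 1769 CPM in Mock Pdgfra-positive and 1554 to 1575 CPM in Mock Pdgfra-low libraries. The list holds PDGFRA and MSX1, the genes of the sort. Without them, the other 9 genes summed to 1279 to 1289 CPM in FGF8+10 Pdgfra-positive and 1064 to 1077 CPM in FGF8+10 Pdgfra-low libraries, against 1292 CPM in both Mock Pdgfra-positive and 1339 to 1355 CPM in Mock Pdgfra-low libraries.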
